A study of Mus musculus with 2 samples.

Results

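The cells described here are the 3000 germ cells of E15.5 mouse ovaries with the highest summed level of Ccnb3, Ribc1, Morn5 and Spa17 among germ cells with little Stra8. They are called advanced germ cells below, as a short name for the rule only. Their stage in meiotic prophase was not measured. They were taken from 29259 deposited cell barcodes, of which 25395 had at least 3000 UMIs and under 10% mitochondrial UMIs. A UMI (unique molecular identifier) marks a captured transcript. A barcode was taken as a germ cell when Dazl, Ddx4, Smc1b, Sycp1, Sycp3 and Stra8 together gave at least 20 UMIs per 10000, which held for 18617 barcodes. Of these, 14113 had under 2 UMIs of Stra8 per 10000, and the 3000 advanced germ cells were the highest among them by the 4-gene score. The KO library contributed 1859 of the 3000 and the WT library 1141. The other 15617 germ cells comprised 11113 with Stra8 under that limit (6253 KO, 4860 WT), called the next Stra8-low germ cells, and 4504 with Stra8 at or over it (3141 KO, 1363 WT).

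The study compared ovaries with and without the glucocorticoid receptor (GR), a steroid-activated transcription factor encoded by Nr3c1, to ask what GR does in female germ cells. KO embryos carried a homozygous deletion of Nr3c1 exon 3, made by crossing the floxed allele Nr3c1tm1.1Jda with a β-actin Cre line (Tmem163Tg(ACTB-cre)2Mrt), so the gene was missing in all cells of the body and not in germ cells alone. WT ovaries were controls of the same stage, and the germ cells of both groups were marked by the transgene Tg(Pou5f1-EGFP)2Mnn, which drives GFP from Pou5f1 sequences. Ovaries of 2 KO embryos and of 4 WT embryos were pooled by genotype, all female, sorted on GFP and mixed at 60% germ cells to 40% somatic cells. Each pool gave 1 library, so no difference between KO and WT has a replicate check, and genotype cannot be told apart from embryo pool, sort or capture. Intervals in brackets are exact 95% intervals for counting error only.

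In the fetal ovary, germ cells leave mitosis and enter meiosis under the control of Stra8, and then pass through the long prophase of the first meiotic division. During prophase, chromosomes build protein axes, DNA is broken on purpose, broken ends search for the homologous chromosome, and the synaptonemal complex closes between homologs while breaks are repaired and some become crossovers. The germ line also transcribes many genes otherwise known from cilia and sperm tails, among them 3 of the 4 genes of the score. Ribc1 encodes a protein of microtubule doublets, Morn5 a MORN repeat protein and Spa17 a sperm protein, while Ccnb3 encodes a B-type cyclin of meiotic cells.

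The promoters of these genes are shown because their transcripts chose the cells, together with those of Tex9, Enkur and Meig1, sperm or axonemal genes whose ratios in the advanced germ cells are given below. Each line is the 250 bases before the RefSeq start in GRCm38.p6, 5′ to 3′ on the strand of the gene. Capitals mark GTTGCC or its complement GGCAAC, the core of the X-box bound by RFX factors, which are known as regulators of cilium genes.
Ribc1 (chrX:152016296-152016545, minus strand): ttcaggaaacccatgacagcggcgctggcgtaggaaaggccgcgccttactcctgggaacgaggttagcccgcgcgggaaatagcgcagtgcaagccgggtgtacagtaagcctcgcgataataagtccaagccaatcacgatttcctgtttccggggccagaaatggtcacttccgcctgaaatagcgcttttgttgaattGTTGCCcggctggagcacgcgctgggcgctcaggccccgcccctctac
Tex9 (chr9:72491960-72492209, minus strand): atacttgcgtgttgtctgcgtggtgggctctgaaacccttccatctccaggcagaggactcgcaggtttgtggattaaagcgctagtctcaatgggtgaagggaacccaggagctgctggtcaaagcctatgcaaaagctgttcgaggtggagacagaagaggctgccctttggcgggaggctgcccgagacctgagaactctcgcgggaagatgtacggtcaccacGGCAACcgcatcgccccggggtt
Enkur (chr2:21205366-21205615, minus strand): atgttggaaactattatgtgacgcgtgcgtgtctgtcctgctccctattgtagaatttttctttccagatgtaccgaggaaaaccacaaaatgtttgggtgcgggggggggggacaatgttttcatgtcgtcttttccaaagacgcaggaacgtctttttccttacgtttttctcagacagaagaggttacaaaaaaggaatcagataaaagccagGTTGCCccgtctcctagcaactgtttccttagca
Meig1 (chr2:3422649-3422898, minus strand): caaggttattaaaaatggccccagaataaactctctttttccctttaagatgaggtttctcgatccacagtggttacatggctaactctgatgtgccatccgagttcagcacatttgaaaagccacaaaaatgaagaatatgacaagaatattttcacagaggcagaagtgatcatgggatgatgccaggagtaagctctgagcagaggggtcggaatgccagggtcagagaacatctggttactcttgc
Ccnb3 (chrX:7041620-7041869, minus strand): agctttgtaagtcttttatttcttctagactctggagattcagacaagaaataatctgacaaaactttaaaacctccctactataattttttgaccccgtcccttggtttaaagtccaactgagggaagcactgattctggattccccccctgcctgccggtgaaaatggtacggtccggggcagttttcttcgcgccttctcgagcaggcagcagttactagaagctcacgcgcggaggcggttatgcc
Morn5 (chr2:36049223-36049472, plus strand): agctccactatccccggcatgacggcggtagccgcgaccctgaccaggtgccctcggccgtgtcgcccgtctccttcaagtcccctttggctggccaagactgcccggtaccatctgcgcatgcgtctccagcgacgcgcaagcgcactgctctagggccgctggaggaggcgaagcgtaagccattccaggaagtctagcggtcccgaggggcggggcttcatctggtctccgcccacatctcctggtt
Spa17 (chr9:37613722-37613971, minus strand): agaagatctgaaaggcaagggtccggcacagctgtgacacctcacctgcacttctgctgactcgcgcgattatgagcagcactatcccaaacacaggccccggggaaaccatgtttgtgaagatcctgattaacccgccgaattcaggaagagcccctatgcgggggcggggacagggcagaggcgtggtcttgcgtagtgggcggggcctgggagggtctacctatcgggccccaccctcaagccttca
GTTGCC, searched on both strands, lay 48 to 43 bases before the start of Ribc1, 23 to 18 bases before that of Tex9 and 34 to 29 bases before that of Enkur. The promoters of Meig1, Ccnb3, Morn5 and Spa17 held none in this window. Of all 27025 promoters in the table, 10.5% held the motif. In a list of 35 axonemal and sperm-type genes it was found in 17 of the 32 with a promoter (53.1%). In that list, 11 of the 17 genes that were higher in advanced germ cells beyond counting error in both libraries held it, and so did 4 of the 6 other counted genes with a promoter. Of the 30 genes counted below as higher in advanced germ cells, 25 had a promoter and 4 of these (16%) held it. A match describes these letters only.

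The KO library held 186117981 UMIs and the WT library 168483330, and WT cells were deeper. The median depth of advanced germ cells was 9734 UMIs in KO and 15376 in WT, with 2998 and 3928 genes detected. The next Stra8-low germ cells were slightly deeper, at 11142 and 16609.5 UMIs, and germ cells with Stra8 deeper still, at 14971 and 22316. Doublets were called in 2.04% of KO and 0.351% of WT advanced germ cells, against 11.7% and 4.71% of other germ cells. Of the barcode sequences, 75 occurred in both libraries, 12 of them as germ cells in both and 0 as advanced germ cells in both.

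The 4 genes of the score were chosen to be high, so their values describe the selection and support nothing. Ccnb3 stood at 332 UMIs per 1000000 UMIs (CPM) in KO advanced germ cells against 111 in other germ cells, and at 329 against 109 in WT. Ribc1 stood at 233 against 88.0 CPM in KO and 212 against 95.8 in WT, and Morn5 at 113 against 27.1 in KO and 117 against 32.6 in WT. Spa17 stood at 428 against 194 CPM in KO and 389 against 192 in WT. The cells were not uniform: UMIs of all 4 genes were found in 51.0% of KO and 68.1% of WT advanced germ cells, and UMIs of 3 genes in 38.1% of KO. Spa17 was detected in 97.3% of KO and 98.6% of WT advanced germ cells, and Morn5 in 63.1% and 77.4%. In barcodes under the germ limit, which should lack these genes, the shares were 8.81% and 12.6% for Spa17 and 1.21% and 2.19% for Morn5, at median depths of 7826.5 and 11884 UMIs. With each cell thinned to 3000 UMIs, Morn5 was found in 28.8% of KO and 30.0% of WT advanced germ cells.

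Membership was a matter of degree. The scores just inside the limit were 8.60493 and 8.60215 UMIs per 10000 and those just outside were 8.60162 and 8.60153. When every cell was thinned to 3000 UMIs and the 3000 cells were chosen again, 1615 of them (53.8%) were the same, 1244 moved to the next Stra8-low germ cells and 140 to cells with Stra8. When 1 of the 4 genes was left out of the score, the left-out gene was still higher in the cells chosen by the other 3. The log2 ratio to other germ cells was then 1.37 (1.28 to 1.45) in KO and 1.28 (1.20 to 1.36) in WT for Morn5, 0.82 and 0.65 for Ribc1, 0.73 and 0.61 for Ccnb3 and 0.50 and 0.42 for Spa17. Against the next Stra8-low germ cells alone it ranged from 0.25 for Spa17 in WT to 0.92 for Morn5 in WT. These sets shared 2126 to 2595 cells with the 3000.

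Hist1h2aa, a germ cell histone H2A, and Syce3, a protein of the central element of the synaptonemal complex, were given as markers of these cells and were not used to choose them. Hist1h2aa stood at 325 CPM in advanced and 214 in other germ cells of KO, a log2 ratio of 0.60 (0.57 to 0.64), and at 313 and 209 in WT, 0.58 (0.54 to 0.62). Syce3 stood at 1724 and 1189 CPM in KO, 0.54 (0.52 to 0.55), and at 1527 and 1222 in WT, 0.32 (0.30 to 0.34). Both markers were higher in both libraries. Most of this lay in the contrast with Stra8-positive cells. Against the next Stra8-low germ cells the ratios were 0.18 in KO and 0.26 in WT for Hist1h2aa and 0.20 and 0.08 for Syce3, and along the score neither marker climbed toward the highest group of 1000 cells. Nuclei were not staged, so the position of these cells in prophase rests on transcripts alone.

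Advanced germ cells were then compared with all other germ cells within each library. Beyond counting error in both libraries, 17 of 25 axonemal and sperm-type genes and 9 of 12 histone variants were higher in them, while 12 of 14 synaptonemal complex and axis genes and 7 of 10 break formation genes were lower. Crossover and piRNA genes were split. Over all genes compared, 31.6% were higher and 26.5% lower in this way, and each list count below is to be read beside these shares. Most differences were small. A gene was counted as different when ln(CP10k + 1), the natural log of UMIs per 10000 plus 1 in the summed cells, differed by at least 0.25 in the same direction in both libraries. Of 12820 genes with at least 100 UMIs in each library, the genes of the rule left out, 30 were higher (0.234% of those compared) and 194 lower (1.51%). Across all genes compared, the log2 ratio had a median of 0.02 in KO and 0.08 in WT. Because the comparison groups come from a choice of cells by expression, these counts are a description and no test was made. The counts also rest on the scaling. Ribosomal protein genes gave 29.2% of UMIs in KO and 29.1% in WT advanced germ cells against 26.8% and 27.3% in other germ cells, and with mitochondrial, ribosomal protein and haemoglobin genes left out of the totals the counts were 96 higher and 291 lower.

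**Figure D1:**
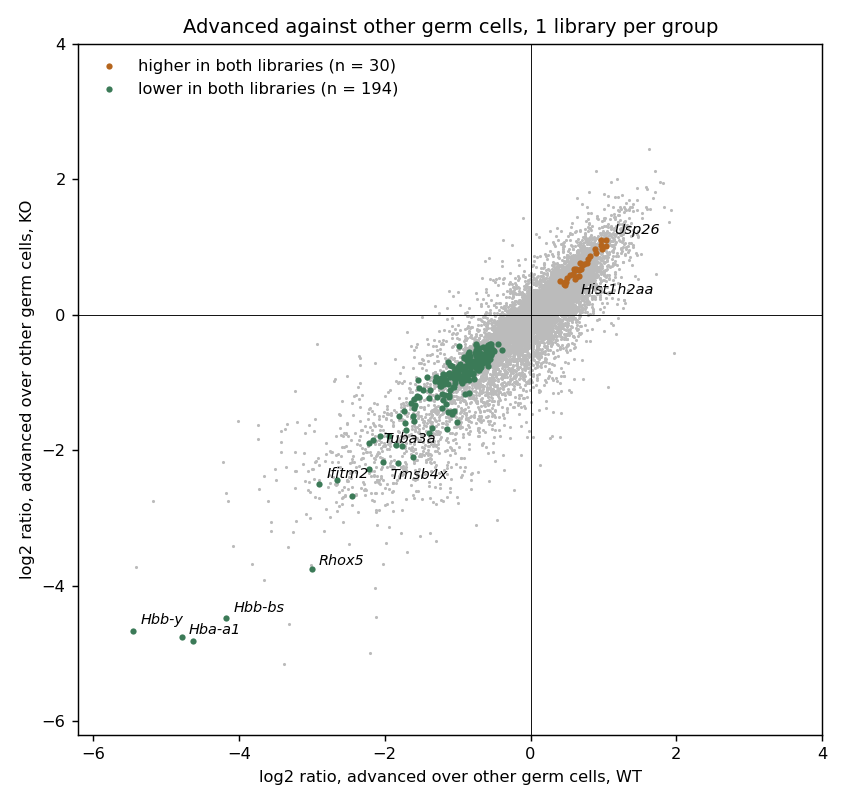
Each point is a gene, with its log2 ratio of advanced over other germ cells in WT on the x axis and in KO on the y axis, 1 library each. The 30 higher genes (orange) reach 1.10 for Usp26 in KO, while the 194 lower genes (green) reach -5.45 for Hbb-y in WT.

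Of the 30 higher genes, the 12 with the largest ratio in the library where it was smaller were described singly. Usp26, an X-linked deubiquitinase gene of the germ line (chrX:51753959-51801233, minus strand), stood at 129 CPM in advanced and 60.4 in other germ cells of KO, a log2 ratio of 1.10 (1.03 to 1.16), and at 100.2 and 48.7 in WT, 1.04 (0.96 to 1.12). Ahi1, which encodes jouberin of the ciliary transition zone (chr10:20952547-21080429), stood at 140 against 69.5 CPM in KO and 132 against 64.7 in WT, ratios of 1.01 and 1.03. Tex9, named for its expression in testis, stood at 86.4 against 40.2 CPM in KO and 85.1 against 43.5 in WT, ratios of 1.10 and 0.97. In each of these genes the advanced germ cells held about the same excess in both libraries. Ccnb2, a B-type cyclin that drives entry into division, stood at 116 against 56.6 CPM in KO and 140 against 71.7 in WT, ratios of 1.04 and 0.96. H1f0, the linker histone H1.0 of cells that no longer divide, stood at 109 against 55.3 CPM in KO and 159 against 80.7 in WT, with a ratio of 0.98 in both.

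The general transcription factor genes Gtf2f1, a subunit of TFIIF, and Gtf2b, which encodes TFIIB, were both among the 12. Gtf2f1 stood at 423 against 232 CPM in KO and 371 against 211 in WT, ratios of 0.87 and 0.81, and Gtf2b had ratios of 0.75 and 0.73. Eif4a2, a helicase of translation initiation with 1 near-identical copy, had ratios of 0.83 and 0.79. The deubiquitinase gene Josd2 had ratios of 0.98 and 0.88, Lancl1 of 0.91 and 0.90 and the imprinted gene Zdbf2 of 0.74 and 0.71. The antisense transcript Znrd1as had a ratio of 0.77 in both libraries. Use of the strand in counting is not stated in the sources used here, and overlap of its reads with genes on the other strand was not assessed. The remaining 18 higher genes had smaller ratios and included Odc1, Cetn2, Cfap36, Morn2, Hist1h2aa, H1fx and Tubb4b. Odc1, Rps20, Prdx1, Tubb4b and Pabpc1 have near-identical copies elsewhere in the genome and are uncertain as single genes. On the X chromosome lay 3 of the 30 higher genes (10%) and 16 of the 194 lower ones (8.25%), against 3.90% of all genes compared.

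The axonemal and sperm-type list held 35 genes, of which 25 had enough UMIs. Of these, 17 were higher in advanced germ cells with counting intervals above 0 in both libraries and 2 were lower, with a median log2 ratio of 0.66 in KO and 0.58 in WT. Over all genes the intervals lay above 0 in both libraries for 31.6% and below 0 for 26.5%. Meig1, needed for the sperm manchette, stood at 15.0 CPM against 5.05 in KO and 13.0 against 5.10 in WT, ratios of 1.57 (1.36 to 1.77) and 1.35 (1.12 to 1.57). Ccdc39, a ruler of axonemal repeats, had ratios of 1.42 and 1.10. Enkur, an axonemal calmodulin-binding protein, stood at 14 against 5.84 CPM in KO and 19.3 against 8.10 in WT, ratios of 1.26 and 1.25. Most of these transcripts were rare, and Morn2, at 395 CPM in KO, was the only list member past the size limit upward. Mlf1 was past it downward, at −0.64 and −0.86. The factor Foxj1, the master regulator of motile cilia, stood at 0.671 CPM in KO and 0.550 in WT advanced germ cells, with intervals of the ratio that held 0. Rfx2 had ratios of 0.61 and 0.58 and Rfx3 of −0.05 and −0.20.

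Histone variants were higher as a group. Of 12 members with enough UMIs, 9 had intervals above 0 in both libraries and 0 below, with medians of 0.34 and 0.31. Past the size limit were Hist1h2aa, H1f0 and H1fx, a replacement linker histone at 691 against 470 CPM in KO and 912 against 591 in WT. H2afx, the histone phosphorylated at DNA breaks, had ratios of 0.45 and 0.49, and the testis histones Hist1h2ba and Hist1h1t had 0.53 and 0.53, and 0.30 and 0.29.

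Of the piRNA pathway, 13 genes were compared and 6 were higher and 3 lower in both libraries, with medians of 0.03 and 0.16 and 0 past the size limit. The higher ones included Tdrd5, at 24.3 against 12.7 CPM in KO and 29.8 against 16.7 in WT, ratios of 0.94 and 0.83, and Tdrd1 and Tdrd9, tudor proteins of the same granules, at 0.82 and 0.79 and at 0.85 and 0.82. Asz1, a mitochondrial anchor of the pathway, had ratios of 0.73 and 0.78. Piwil1, a PIWI protein of later male germ cells, was rare, at 2.27 CPM in KO and 3.13 in WT, with ratios of 1.23 and 1.25. Mael (0.03 and 0.11) and Mov10l1 (−0.07 and −0.04) differed little.

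Genes of the synaptonemal complex and chromosome axis were mostly lower. Of 14 compared, 12 had intervals below 0 in both libraries and 2 above, with medians of −0.58 in KO and −0.87 in WT. Those above were Syce3 and 4930447C04Rik (Six6os1), which both encode proteins of the central element, the latter at 2177 against 1548 CPM in KO and 1808 against 1455 in WT. The other central element genes Syce1, Syce2 and Tex12 were lower. Syce2 stood at 579 against 891 CPM in KO and 451 against 848 in WT, ratios of −0.62 and −0.91, and Syce1 had −0.83 and −1.04. Among cohesins, the Rec8 kleisin of early meiosis stood at 1.39 against 21 CPM in KO and 1.32 against 16.6 in WT, ratios of −3.92 and −3.66, but most of this came from Stra8-positive cells, since against the next Stra8-low germ cells the ratios were −0.72 and −0.66. Rad21l and Smc3 were past the size limit, with ratios of −0.93 and −1.22, and −1.0 and −1.03. The axis proteins Hormad1 (−0.09 and −0.12) and Sycp2 (−0.11 and −0.26) differed little.

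**Figure D2:**
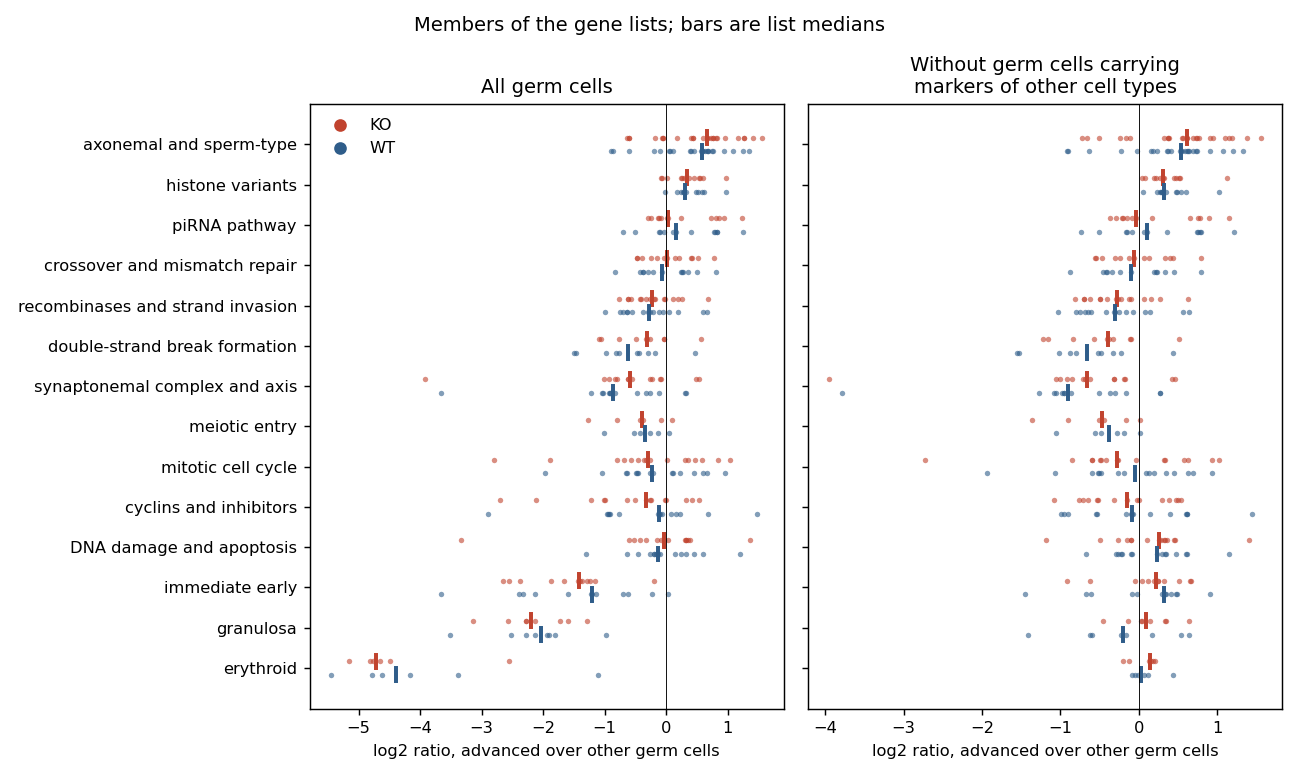
Points are genes of each list, with the log2 ratio of advanced over other germ cells on the x axis, KO in red and WT in blue, and bars are list medians. The axonemal median is 0.66 in KO and the synaptonemal complex median is -0.58, and these keep their side of 0 in the right panel, where germ cells with markers of other cell types are left out, while the immediate early median moves from -1.42 to 0.22.

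Genes that place or make DNA breaks were lower in 7 of 10 cases with intervals in both libraries and higher in 1, with medians of −0.31 and −0.62. Prdm9, which marks the sites of breaks, stood at 139 against 235 CPM in KO and 101 against 198 in WT, ratios of −0.76 and −0.97. Mei4 and Ccdc36 (Iho1), which assemble the break machinery, had ratios of −1.09 and −1.49, and −1.06 and −1.47. Spo11, which cuts the DNA, was the member that was higher, at 106 against 71.1 CPM in KO and 129 against 92.8 in WT, ratios of 0.57 (0.50 to 0.64) and 0.47 (0.41 to 0.54).

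Among 16 recombinase and strand invasion genes, 9 were lower and 2 higher in both libraries. The list medians were −0.23 and −0.28, or −0.07 and −0.17 against the next Stra8-low germ cells. Rad51ap2, Swi5 and Sfr1, accessory factors of the recombinases, were past the size limit downward, with Swi5 at −0.77 and −1.0. The recombinase gene Dmc1 had ratios of −0.33 and −0.37. Psmc3ip (Hop2), a partner of DMC1, was higher at 168 against 105 CPM in KO and 162 against 107 in WT, ratios of 0.68 and 0.60. Of 13 crossover and mismatch repair genes, 6 were higher and 4 lower, against 31.6% and 26.5% of all genes. The list medians were 0.01 and −0.06, with 0 past the size limit. Mlh3, which acts at crossovers, stood at 55.4 against 32.1 CPM in KO and 62.7 against 35.8 in WT, ratios of 0.79 (0.69 to 0.89) and 0.81 (0.72 to 0.91), and Rnf212, Msh4 and Trip13 were higher as well. Msh5, the partner of Msh4, was lower at −0.47 and −0.82.

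Of 16 mitotic genes, 5 were higher and 8 lower, with medians of −0.29 and −0.23. Over all genes 31.6% were higher and 26.5% lower, so the higher mitotic genes were near their share. These were Ccnb2, Ccna2, Cdk1, Plk1 and Birc5, with the mitotic kinase gene Plk1 at 0.85 and 0.67. The lower ones included the replication genes Mcm2, Mcm5, Mcm6 and Pcna, with Mcm5 at −0.36 and −0.45, and Top2a, a topoisomerase gene, was past the size limit at −0.80 and −1.04. Cyclins and inhibitors outside that list numbered 15, with 1 higher and 7 lower and medians of −0.33 and −0.11. Ccne2 and Spdya, an activator of CDK2, were past the limit downward, with Ccne2 at −1.01 and −0.94. The meiotic cyclin gene Ccna1 was rare, at 1.08 against 0.749 CPM in KO and 2.36 against 0.847 in WT. Ccnd2, a cyclin of dividing cells, had −2.71 and −2.90, or −0.76 and −0.90 without the cells described below that carry markers of other cell types. Meiotic entry genes were lower in 5 of 6 cases, with medians of −0.40 and −0.34, or −0.17 and −0.15 against the next Stra8-low germ cells. The rule chose cells with little Stra8, so a contrast with Stra8-positive cells describes that choice in part. Gm4969 (Meiosin), the partner of STRA8, was lowest at −0.79 and −1.0, and Ythdc2, an RNA helicase, stood at 0.09 and 0.06. Of 10 pluripotency genes, 3 were higher and 5 lower, with medians of −0.92 and −0.81, against 31.6% higher and 26.5% lower of all genes. Those higher were Pou5f1, which also drives the GFP transgene, at 0.75 and 0.60, Zfp42 and Kit. Against the next Stra8-low germ cells the list medians were 0.22 and 0.23, so the negative medians lay in the contrast with Stra8-positive cells. Lin28a was rare and lower at −2.88 and −2.08, and Dppa5a was past the limit downward at −1.44 and −1.14 but stood at 0.10 and 0.05 against the next Stra8-low germ cells.

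Genes of the growing oocyte were hardly present. Of 19 members, 9 had enough UMIs, 3 of them higher and 2 lower, near the shares over all genes (31.6% and 26.5%). Zp1, Zp2, Zp3 and Bmp15, products of growing oocytes, each had at most 8 UMIs in the advanced germ cells of a library, and Bcl2l10, Oog1, Oog3 and Oog4 had 0. A count of 0 allows up to 0.155 CPM in KO and 0.165 in WT. The germ cell factor genes Sohlh1 (0.94 and 0.64) and Lhx8 (0.51 and 0.77) were among those higher, and Gdf9, an oocyte growth factor, was rare, at 1.24 CPM in KO and 2.69 in WT. Figla, a factor of the early oocyte, was lower, at 151 against 192 CPM in KO and 143 against 189 in WT, and so was Dppa3, a maternal factor, at −1.93 and −1.44. In the list of DNA damage and apoptosis genes, 4 of 15 were higher and 4 lower, near the shares over all genes (31.6% higher and 26.5% lower). The list medians were −0.03 and −0.13, which came to 0.26 and 0.24 (5 higher and 4 lower) without the cells carrying markers of other cell types. The apoptosis genes Bax, at 0.31 and 0.46, and Pmaip1, at 1.37 and 1.20, were among the higher ones, as was the checkpoint kinase gene Chek1. Of 5 glucocorticoid responsive genes, 0 were higher and 2 lower, the receptor co-chaperone gene Fkbp5 at −0.51 and −0.34 and Tsc22d3 (GILZ) at −0.20 and −0.16.

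Haemoglobin genes led the lower genes. Hba-a1 stood at 30.3 against 821 CPM in KO and 13.5 against 372 in WT, ratios of −4.76 and −4.78, followed by Hbb-bt, Hbb-y and Hbb-bs between −4.17 and −5.45, genes of which Hba-a1 and Hbb-bt have a near-identical copy each. These are transcripts of red blood cells, and markers of other cell types were fewer in advanced germ cells. Cells with at least 10 UMIs per 10000 of the granulosa, stroma, epithelium, endothelium, immune and erythroid lists made up 1.45% of KO and 0.438% of WT advanced germ cells, against 11.9% and 5.19% of the next Stra8-low germ cells and 7.35% and 3.82% of Stra8-positive ones. Summed erythroid markers stood at 89.2 CPM in KO and 44.0 in WT advanced germ cells against 2224 and 992 in other germ cells, summed granulosa markers at 33.9 and 25.2 against 144 and 90.0, and summed stroma markers at 51.0 and 25.3 against 126 and 76.1. Epithelium markers stood at 28.3 and 23.6 CPM against 136 and 77.1, endothelium markers at 6.35 and 3.90 against 18.1 and 8.51 and immune markers at 0.981 and 1.26 against 4.73 and 2.34. Foxl2, which defines granulosa cells, had 0 UMIs in advanced germ cells of both libraries, and Csf1r, a leukocyte marker, 0 in WT. Where list values moved with these markers, they were measured again without such cells.

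The comparison was repeated without the 1312 germ cells over that marker limit, 32 of them advanced. Haemoglobin genes belong to the erythroid list that helped set this limit, so the removal itself lowers them in the remaining cells. Their ratios then lay between −0.09 and 0.21, which describes the removal and supports nothing further. Immediate early genes, of which 10 of 12 had been lower with medians of −1.42 and −1.21, came to medians of 0.22 and 0.32, with Jun at 0.66 and 0.91. The medians of the axonemal list were 0.62 and 0.54 and those of the synaptonemal complex list −0.66 and −0.90. Crossover genes came to 6 higher and 6 lower and piRNA genes to 6 and 4. With the same 3000 cells less those over the limit, 30 genes were higher and 224 lower. Of the 194 lower genes, 168 were not at least 2-fold higher in barcodes under the germ limit than in other germ cells in both libraries. The other 26 made up 13.4% of the lower genes, against 0 of the higher genes and 26.4% of all genes compared.

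**Figure D3:**
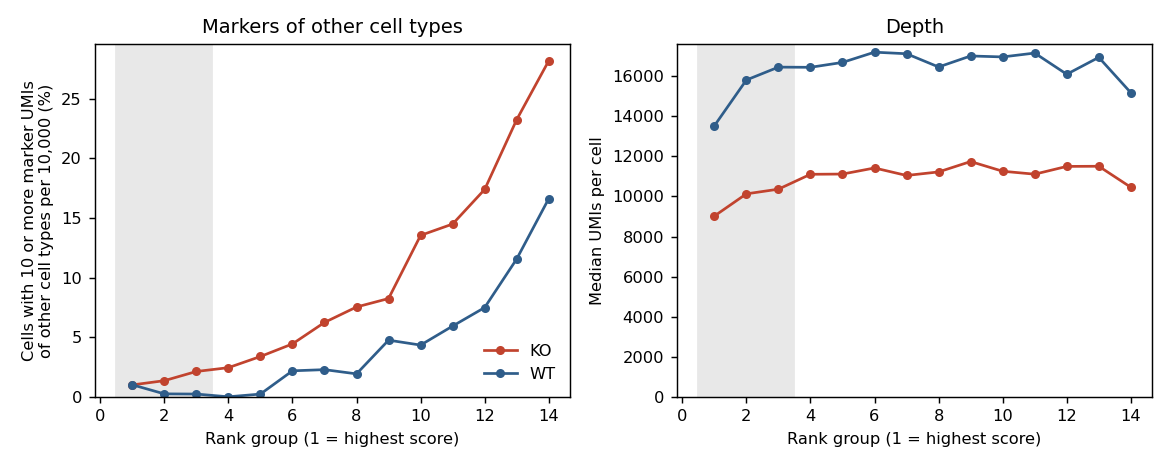
Germ cells with Stra8 under the limit are grouped by 1000 from the highest score (x axis, shaded groups are the advanced germ cells), and the share of cells with at least 10 marker UMIs of other cell types per 10000 (left) and median UMIs per cell (right) are drawn for KO and WT. The share is near 1% in the top group and reaches 28.2% in KO and 16.6% in WT in the last, while median depth lies between 9020 and 11742 UMIs in KO.

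The lower genes that were not at least 2-fold higher in barcodes under the germ limit were led by Rhox5, an X-linked homeobox gene. It stood at 4.49 against 60.3 CPM in KO and 5.17 against 41.4 in WT, ratios of −3.75 and −3.00. Against the next Stra8-low germ cells these ratios were −0.25 and 0.08, so the contrast lay with Stra8-positive cells. Tuba3a, an alpha tubulin gene of the germ line with 1 near-identical copy, kept a difference there. It stood at 74.6 against 278 CPM in KO and 46.8 against 217 in WT, ratios of −1.90 and −2.22, and at −0.81 and −1.33 against the next Stra8-low germ cells. M1ap, a gene needed for male meiosis, stood at 221 against 510 CPM in KO and 125 against 369 in WT, ratios of −1.21 and −1.55, or −0.75 and −1.21 against the next cells. Cdkn2a, a cell cycle inhibitor locus, had −1.70 and −1.71, or −0.77 and −0.98. The other named lower genes were at least 2-fold higher in barcodes under the germ limit than in other germ cells. Of these, Ptov1 had −2.67 and −2.45 and Tmem256 −1.84 and −2.16. Ifitm2 (−2.50 and −2.90, with 3 near-identical copies), the matrix gene Sparc (−2.44 and −2.66), Lgals1 (−2.27 and −2.22) and Tmsb4x (−2.18 and −2.03) completed the 12 named lower genes. Without the cells carrying other markers Tmsb4x came to 0.03 and 0.11, while Ifitm2 still stood at −2.05 and −2.52 and Sparc at −1.09 and −1.44.

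Measured against the next Stra8-low germ cells alone, 5 genes were higher in both libraries, among them Id1, Josd2, Ccnb2 and Gtf2f1, and 54 lower. Of the 30 higher genes, 4 were shared with this comparison and 30 with the comparison against Stra8-positive cells. Along the score, in groups of 1000 cells, levels changed by degrees with no break at the limit of the 3000. Usp26 stood at 152, 125, 109 and 108 CPM in the first 4 groups of KO and at 40.2 in the last full group, and at 117, 100.4, 91.0 and 80.9 and at 24.1 in WT. Ccnb2 declined over the same groups, in KO from 121 to 34.7 CPM and in WT from 152 to 30.4. Syce2 ran the other way, from 501 in the top group to 913 in the last in KO and from 394 to 992 in WT, as did M1ap, from 181 to 382 and from 106 to 413. Hist1h2aa differed from both patterns, at 314 in the top group, 346 in the third and 291 in the eighth in KO, and 309, 324 and 269 in WT.

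**Figure D4:**
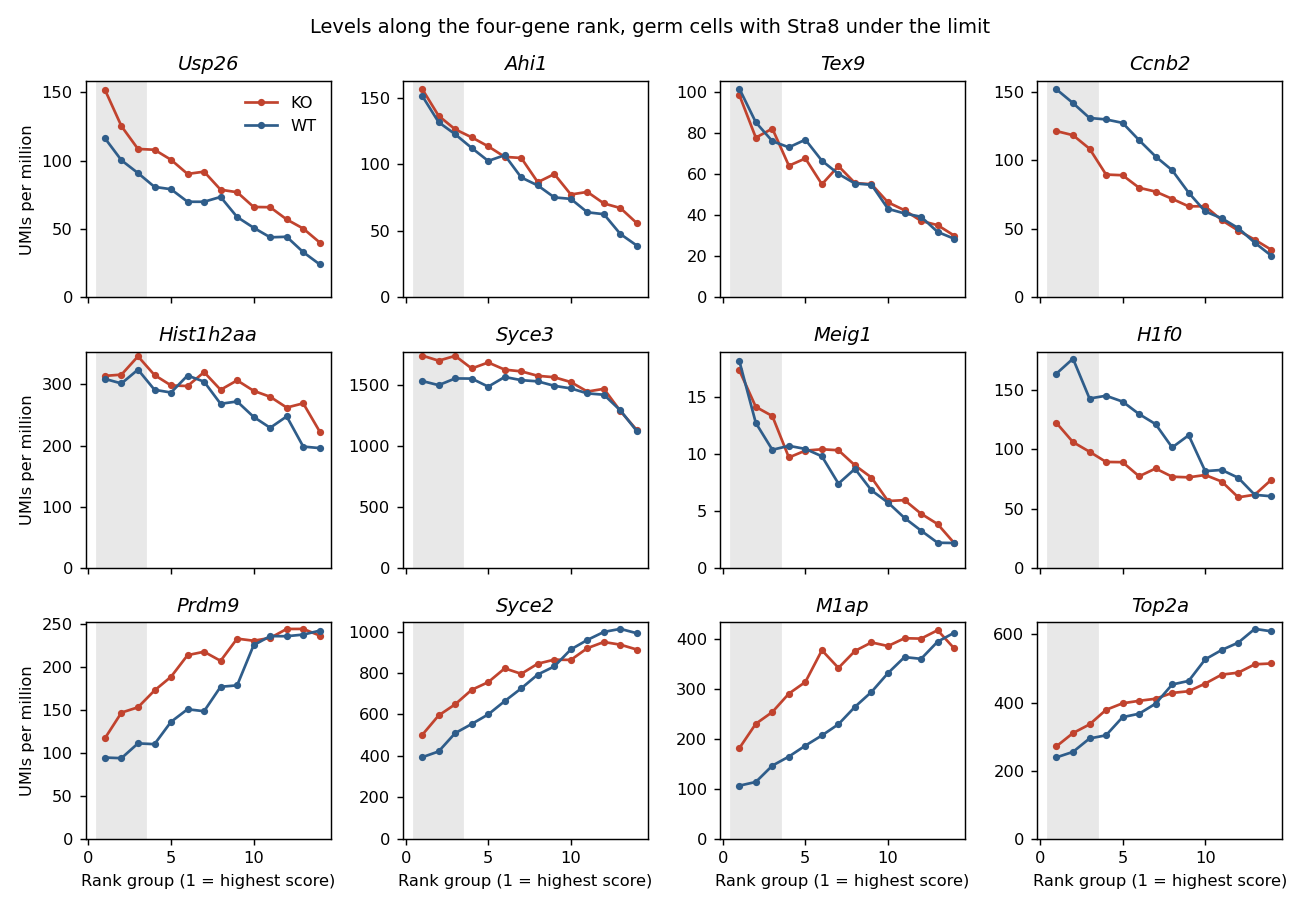
UMIs per 1000000 (y axis) of 12 genes in groups of 1000 germ cells with Stra8 under the limit, ordered from the highest score (x axis), KO in red and WT in blue, with the 3 groups of advanced germ cells shaded. Usp26, Ahi1, Tex9 and Ccnb2 decline along the order, Prdm9, Syce2, M1ap and Top2a climb, and Hist1h2aa and Syce3 are nearly level over the first 8 groups.

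KO and WT were then compared within the advanced germ cells, to ask whether these cells differ without GR. Their share depended on the cells it was taken from. Of all germ cells, 16.5% in KO (15.8 to 17.2) and 15.49% in WT (14.7 to 16.3) were advanced. After thinning to 3000 UMIs these shares were 16.1% and 16.2%. Of germ cells with Stra8 under the limit they made up 22.9% in KO and 19.0% in WT, or 22.9% and 20.3% after thinning. The median score was 10.6 in KO and 10.1 in WT. All germ cells had passed a GFP sort, and with 1 pool a genotype the spread between ovaries is unknown.

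Nr3c1, the deleted gene, was measured first. KO advanced germ cells held 8.93 CPM (7.65 to 10.4), against 63.0 CPM (59.4 to 66.8) in WT, a log2 ratio of −2.82 (−3.06 to −2.59). The direction followed the labels. Its UMIs were found in 8.71% of KO and 57.2% of WT advanced germ cells, and in 5.42% and 25.3% of barcodes under the germ limit. In other germ cells Nr3c1 stood at 11.9 and 73.0 CPM, so WT advanced germ cells held slightly less of it than other WT germ cells (log2 −0.21, −0.30 to −0.12). Counts name genes and not exons, and reads near the 3-prime end do not show whether exon 3 is missing.

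Few genes differed. Of 10188 genes with at least 100 UMIs in the advanced germ cells of both libraries together, 15 were higher in KO (0.147% of those compared) and 16 lower (0.157%), with a median log2 ratio of −0.06 and 95% of genes between −0.68 and 0.49. Of these 31 genes, 30 had the same sign in other germ cells of the same 2 libraries, the exception being Ftl1. Several were ribosomal protein genes, pseudogenes or predicted genes. Among those higher, Gm8730 (1.52), Gm10709 (1.40), Gm10076 (0.97), Gm10260 (0.71) and Rps26-ps1 (0.76) share at least 200 bases at 95% identity with 1 to 32 other genes. Among those lower so do Cwc22 (−1.36), Rps27rt (−0.65), Rpl29 (−0.58), Wdr89 (−0.55) and Gm11808 (−0.50), with 1 to 34 other genes, so all these values are uncertain as single genes. Lars2 (−0.63), Gm42418 (−0.52), mt-Nd3 (−0.43) and mt-Atp6 (−0.39) were lower as well, the last pair with 1 near-identical copy each. The X-linked paralogs Xlr4a (0.98) and Xlr4c (0.84) each match 4 other genes.

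**Figure D5:**
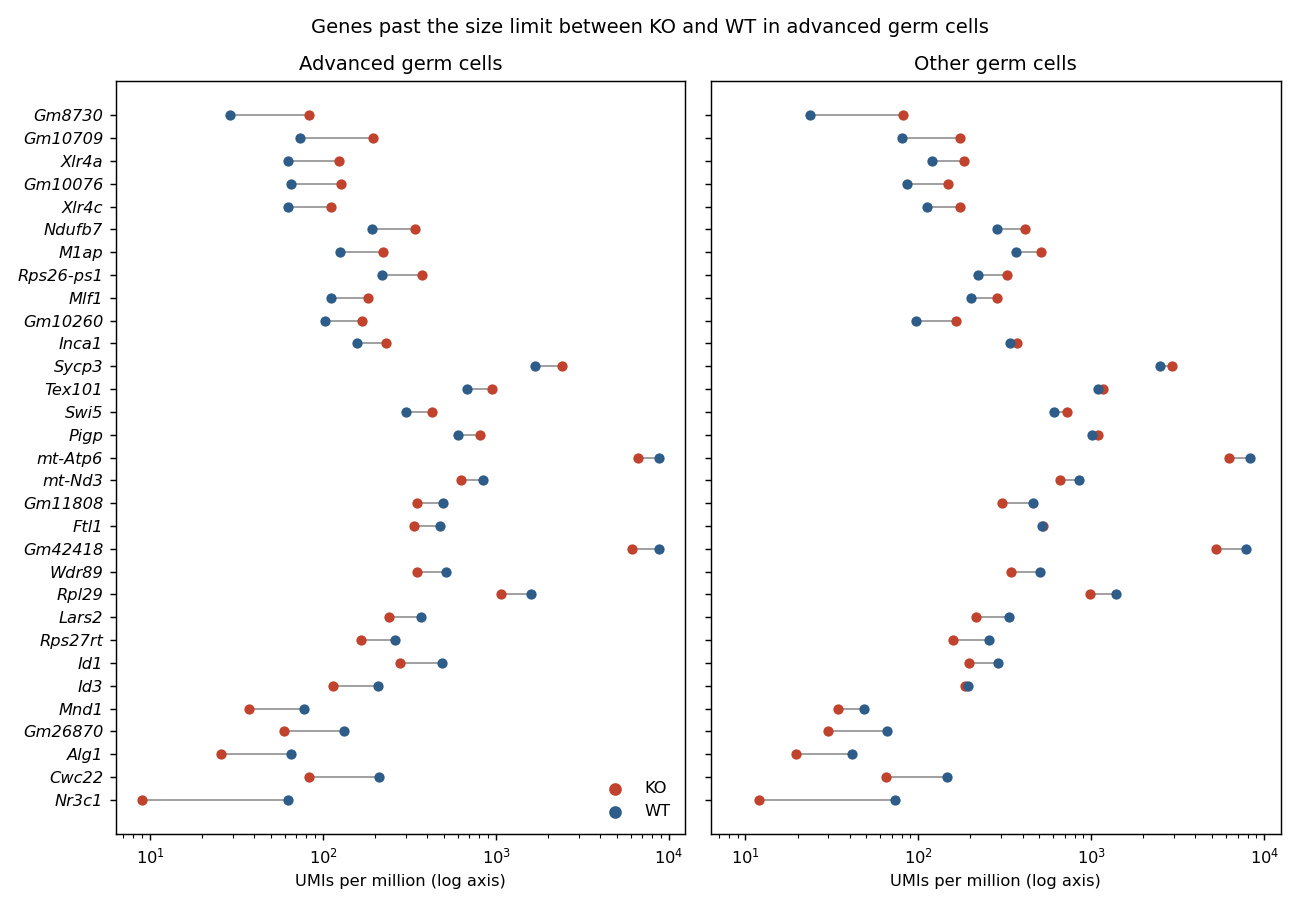
UMIs per 1000000 on a log axis in KO (red) and WT (blue) for the 31 genes past the size limit in advanced germ cells, with the same genes in other germ cells on the right. Nr3c1 is 8.93 in KO against 63.0 in WT, and Id3 and Ftl1 are apart in advanced germ cells and nearly equal in other germ cells. More KO than WT cells among other germ cells carry markers of other cell types. Values without such cells are given in the text, and whether they bear on either gene was not tested.

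The lower genes without near-identical copies included Alg1, a mannosyltransferase gene, at 25.7 CPM in KO and 65.1 in WT, a log2 ratio of −1.34 (−1.50 to −1.19), against −1.07 in other germ cells. Gm26870 stood at 59.3 and 132 CPM (−1.15). Mnd1, the partner of Psmc3ip in strand invasion, has 1 near-identical copy and stood at 37.1 CPM in KO and 77.3 in WT, −1.06 (−1.19 to −0.93), against −0.51 (−0.57 to −0.45) in other germ cells. In WT it was higher in advanced than in other germ cells (0.66), and in KO nearly equal (0.11). The other germ cells held a larger share of Stra8-positive cells in KO than in WT. Id3 and Id1, inhibitors of E-box factors that respond to BMP signals, were both lower in KO. Id3 stood at 114 CPM in KO and 206 in WT, −0.85 (−0.93 to −0.78), against −0.06 (−0.09 to −0.03) in other germ cells, and Id1 at 276 and 489, −0.82, against −0.55. In 4 groups of 1000 cells from the top of the score, the Id3 ratio was −0.60, −0.87, −0.95 and −1.11, so it was not larger at the highest scores, and the fourth group lies outside the 3000. In the next Stra8-low germ cells the Id3 ratio was −0.45. Ftl1, ferritin light chain, stood at 334 and 473 CPM (−0.50) with 5 near-identical copies, against 0.02 in other germ cells. Both Id3 and Ftl1 were more abundant in barcodes under the germ limit, at 519 CPM in KO and 598 in WT for Id3 and 2307 and 2364 for Ftl1, and cells with markers of other types were more frequent in KO. Without those cells Ftl1 stood at 420 CPM in KO and 468 in WT other germ cells and at 325 and 472 in advanced ones, and Id3 at 167 and 180 and at 110 and 206. Whether a ratio differs between advanced and other germ cells was not tested.

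Among the genes higher in KO, M1ap stood at 221 and 125 CPM (0.81, against 0.47), Swi5 at 426 and 303 (0.49, against 0.26) and Tex101, a surface protein of germ cells, at 950 and 676 (0.49, against 0.09). Inca1 (0.56), Mlf1 (0.72), Pigp (0.44, with 1 near-identical copy) and the respiratory chain gene Ndufb7 (0.82) were higher too. The last of the 15, Sycp3, is part of the germ cell rule, so its value supports nothing further. It stood at 2407 CPM in KO and 1677 in WT, a log2 ratio of 0.52 (0.50 to 0.54), against 0.23 in other germ cells. M1ap, Swi5, Inca1, Mlf1, Tex101, Pigp and Sycp3 were lower in advanced than in other germ cells of both libraries, and for each of them that ratio lay nearer 0 in KO. The other germ cells differed in make-up, with 3141 of 9394 Stra8-positive in KO and 1363 of 6223 in WT, and KO cells were shallower. Genotype cannot be told apart from these, and the difference between the libraries was not tested.

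The lists differed in direction. Of 13 synaptonemal complex and axis genes, 11 had counting intervals above 0 for KO over WT and 0 below, with a median of 0.27, while over all genes 15.9% lay above and 26.8% below. For break formation 7 of 10 lay above and 1 below (median 0.25), Prdm9 at 0.45 (0.37 to 0.54) above and Spo11 at −0.29 (−0.37 to −0.20) below. Both lists were lower in advanced than in other germ cells, and less so in KO. The medians were −0.58 in KO and −0.87 in WT for the first list and −0.31 and −0.62 for break formation. KO cells were shallower, and whether depth or the choice of cells bears on these list ratios was not tested. For recombinases 10 of 16 lay above and 2 below (0.14), and for crossover genes 3 above and 3 below of 13 (0.00). Axonemal genes lay above in 7 and below in 2 of 19 (0.13), piRNA genes in 2 and 7 of 13 (−0.09), histone variants in 3 and 5 of 12 (−0.02) and mitotic genes in 2 and 4 of 15 (−0.04). H1f0 and H1fx were lower in KO, at −0.55 and −0.40. In other germ cells, Sycp3, Prdm9 and Spo11 had ratios of the same sign, 0.23, 0.25 and −0.38.

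Over all genes 15.9% lay above and 26.8% below, and each count in this paragraph is to be read beside these shares. Oocyte genes lay below in 3 and above in 0 of 7 (−0.34). Sohlh1, a transcription factor of early oocytes, stood at 4.13 CPM in KO and 18.3 in WT, a log2 ratio of −2.15 (−2.52 to −1.79) against −2.45 in other germ cells, which its low level kept under the size limit. Lhx8 was also lower, at 8.73 and 14.8 CPM (−0.77). Of 3 glucocorticoid responsive genes with enough UMIs, 1 lay below 0 and 0 above, near the shares over all genes. The one below was Klf9 (−0.86, −1.48 to −0.27), which was rare. Tsc22d3 stood at 155 CPM in both libraries and Fkbp5 at 19.0 and 20.4, while the whole list summed to 179 CPM in KO and 182 in WT. Among pluripotency genes 1 lay above and 3 below of 5 (−0.30), among meiotic entry genes 1 and 3 of 6 (−0.06), among cyclins and inhibitors 3 and 5 of 14 (−0.07) and among DNA damage genes 1 and 3 of 13 (−0.05), with Pmaip1 at −1.22. Immediate early genes lay above in 0 and below in 1 of 9 (0.05). Markers of other cell types were higher in KO advanced germ cells, with 4 of 5 granulosa, 5 of 6 stroma and 4 of 4 erythroid genes above 0 and 0 below, and 0 of 2 epithelium genes on either side. When the cells over the marker limit were removed before the 3000 were chosen, 15 genes were higher in KO and 17 lower, with 15 and 16 of them shared with the counts above.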

How the data were processed

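Single-cell RNA sequencing was performed on 1 KO and 1 WT library of E15.5 ovaries. The authors deposited whole-number UMI counts per gene and barcode, made with Cell Ranger 3.0.2 per the file headers, and the submitters' processing notes also name Seurat 3.2.3 and mm10. How reads matching several genes were treated is not given in the sources used here. Counts were summed over cells per library and expressed as CPM. CPM carry exact Poisson intervals, shares Clopper-Pearson intervals and log2 ratios conditional binomial intervals, all at 95%. With 1 library per group no test was made and no p-value is given. The size limit of 0.25 on the ln(CP10k + 1) scale understates differences of rare genes, and list members beneath it were described by whether their counting intervals lay on the same side of 0 in both libraries. Genes needed 100 UMIs, in each library for advanced against other germ cells and over both libraries for KO against WT.

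The members, gene lists and comparisons were chosen with earlier results of these data known. Named genes were the 12 in each direction with the largest smaller log2 ratio of both libraries, the 6 in each direction with the largest KO over WT ratio and Nr3c1, the extremes of each list, and the genes a sentence on a list needed. Doublets were not removed, and Scrublet calls at an expected rate of 8% were an alternative, beside the limits of the study on cells, thinning to 3000 UMIs, 2000 or 4000 cells, other scaling and other size limits. Comparison with next Stra8-low germ cells only, and removal of cells with other markers, were added after the data were seen. Gene positions are those of the annotation of GRCm38, promoters come from RefSeq (GRCm38.p6), and transcripts were searched for near-identical copies (95% over 200 bases). Python 3.11.15, numpy 2.4.6, scipy 1.17.1, pandas 2.3.3, scanpy 1.11.5 and matplotlib 3.10.9 were used, and ratios and intervals were tested on simulated data.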

Additional observations from a re-analysis of the deposited data

Results flagged for a closer look

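H3f3a, a replacement histone H3, stood apart because its log2 ratio of advanced over other germ cells had opposite signs in the libraries, at −0.082 in KO and 0.18 in WT. Cdk4 (−0.25 in KO and 0.23 in WT), the kinase partner of D-type cyclins, and Cdkn1c (−0.33 and 0.078), a cell cycle inhibitor, did so as well. The difference between the libraries was not tested. Without germ cells carrying markers of other cell types the signs were the same, at 0.20 and 0.35 for H3f3a, 0.50 and 0.61 for Cdk4 and 0.54 and 0.60 for Cdkn1c.

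Barcodes outside the limits on UMIs and mitochondrial share enter no comparison, yet 170 KO and 118 WT of them met the germ, Stra8 and 4-gene limits of advanced germ cells. They came from 1119 KO and 1009 WT germ barcodes outside the limits. Their median depth was 1123 UMIs in KO and 1837 in WT, and their median mitochondrial share 11.9% and 11.6%. At this depth few UMIs decide the score.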

How the results depend on the processing

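The share of advanced germ cells among all germ cells had a KO over WT ratio of 1.07. It came to 0.996 after thinning to 3000 UMIs and to 1.20 with 2000 cells. It lay between 1.01 and 1.12 with the limits of the study, without doublets, with 4000 cells and without cells carrying other markers. With mitochondrial, ribosomal protein and haemoglobin genes left out of the totals the shares were 15.8% in KO and 16.2% in WT, so the direction turned with depth and with this scaling. The 30 higher genes became 3 after thinning, 96 with mitochondrial, ribosomal protein and haemoglobin genes left out of the totals, 0 at a size limit of 0.5, 170 at a log2 limit of 1 (2 shared) and 5 against the next Stra8-low germ cells only. The 194 lower genes became 60, 291, 19, 849 (59 shared) and 54 under the same alternatives. Of the KO against WT counts, 15 higher and 16 lower, the 0.5 limit left 1 and 1 and the log2 limit of 1 gave 32 and 61. Each of these counts was within 1.5 times its value under the alternatives not named. The members moved more than the counts: after thinning, 12 genes were higher in KO and 18 lower, of which 10 and 13 were shared with the 15 and 16. The Nr3c1 ratio lay between −2.94 and −2.68.

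The log2 ratio of Hist1h2aa, 0.594 as the mean of both libraries, was 0.559 with the limits of the study on cells, 0.536 without Scrublet doublets, 0.370 after thinning, 0.508 with 2000 cells, 0.647 with the other totals, 0.468 as a mean over cells, 0.223 against the next Stra8-low germ cells and 0.537 without cells carrying other markers. That of Syce3, 0.429, was 0.410, 0.388, 0.319, 0.391, 0.555, 0.343, 0.139 and 0.373 in the same order, and 0.451 with 4000 cells. Signs turned when cells carrying other markers were removed before the choice, to 0.12 for Hba-a1, 0.075 for Hbb-y, 0.047 for Hbb-bt, 0.14 for Hbb-bs and 0.063 for Tmsb4x. The haemoglobin genes are among the markers that chose the removed cells, so their change follows from the removal. The remaining genes among the 12 higher and 12 lower, and those named for KO against WT, kept the direction of their mean over both libraries under every alternative run on them, although Rhox5 in WT stood at 0.08 against the next Stra8-low germ cells. No paired analysis was possible because each group holds 1 library, and for the same reason no replicate could be left out. Depth limits the rare genes: a gene under 5 CPM rests on fewer than 100 UMIs in a library.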
